A study of Homo sapiens with 12 samples.

Results

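A set of 8 genes of cholesterol synthesis and its control, HMGCS1, IDI1, FDPS, FDFT1, SQLE, LSS, DHCR7 and INSIG1, were followed across human HT1080 fibrosarcoma cells that express ectopic ING2 and were treated with the DNA-damaging drug etoposide or with its solvent. The 8 genes were taken by symbol, with every probe that carries one of these symbols. This gave 14 of the 48797 probes on the array and 8 of its 24947 gene symbols. HMGCS1, IDI1 and FDPS had 1 probe each. SQLE, INSIG1, FDFT1 and DHCR7 had 2, and LSS had 3. A filter on low values kept a probe where 3 or more of the 12 arrays had an intensity of at least 64. All 14 member probes passed it, among 15459 in all. The rule itself uses no measured value.

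The series holds 12 Illumina BeadArrays in 4 groups of 3, numbered 1 to 3 in the labels. ING2 is a subunit of a histone deacetylase complex that binds a methylated histone tail and nuclear phosphoinositide lipids. The groups are cells with ING2-6K/Rmt, a mutant made to bind these lipids poorly, given 100 uM etoposide, ING2-6K/Rmt cells given DMSO, cells with wild-type ING2 (ING2-WT) given 100 uM etoposide, and ING2-WT cells given DMSO, each for 16 h per the labels, while the study's text gives another time. In all 4 groups the ectopic ING2 was expressed constitutively in stable lines. No deletion of endogenous ING2 is described, but the study states that its protein was depleted when ectopic ING2 was expressed, so most ING2 was ectopic. All were grown in medium with newborn calf serum, which carries lipoproteins. No group of parental cells is among these arrays. The labels do not say whether a line is 1 clone, nor which arrays came from their own culture, so a p-value here reflects the variation among these arrays alone, and part or all of that may be technical.

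Cells make cholesterol from acetyl-CoA. HMG-CoA synthase (HMGCS1) acts early in the mevalonate route, isopentenyl diphosphate isomerase (IDI1) and farnesyl diphosphate synthase (FDPS) build farnesyl diphosphate, and squalene synthase (FDFT1), squalene epoxidase (SQLE) and lanosterol synthase (LSS) lead to the first sterol. DHCR7 acts in the last steps to cholesterol. When sterols in the endoplasmic reticulum run low, the SREBP transcription factors leave for the Golgi, are cut and switch on these enzymes. INSIG1 is both a target and a brake of this loop, since it holds the SREBP escort SCAP in the endoplasmic reticulum when sterols are plentiful.

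Some arrays stood apart or went against their labels. Etoposide is known to induce CDKN1A and to lower the mitotic topoisomerase gene TOP2A through p53, and the ING2-WT arrays did so, with 14620 to 16640 for CDKN1A after etoposide against 2964 to 4277 in DMSO. On the arrays labelled ING2-6K/Rmt the order was turned round: CDKN1A read 3069 to 5896 on those labelled etoposide and 11500 to 16290 on those labelled DMSO, and TOP2A read 1937 to 3319 on those labelled etoposide and 67.08 to 127 on those labelled DMSO. ING2 itself, the ectopic gene, was bright on 2 of the 12 arrays, those labelled ING2-6K/Rmt etoposide 1 and 2 (21060 and 20290), and read 112 to 454.6 on the other 10. Where on the transcript this probe lies was not checked. Groups are therefore named as labelled throughout, and a direction drawn on the ING2-6K/Rmt arrays holds for the labels only. The arrays numbered 3 lay far from the others, with a median absolute log2 distance of 0.435 to 0.932 from the mean of arrays 1 and 2 of their group, against 0.195 to 0.242 between arrays 1 and 2. ING2-WT etoposide 3 lay farthest, at 0.932, and had the lowest weight (0.071) in a fit with array weights. On it probes of 1 gene could part widely. CD44 probes 1 and 2 read 17890 and 31.95 there, against 5721 and 538 on ING2-WT etoposide 1. Results that rest on the arrays numbered 3 are given with and without them. Of 7 mesenchymal markers 6 reached 64 on all 12 arrays (VIM, LGALS1, S100A6, CD44, TIMP1 and SPARC) and THY1 on none. Of 6 markers of other cells KRT19, PTPRC, CD3E and ALB reached it on none, EPCAM on 4 and CDH1 on 3. In bulk RNA, fewer cells that express a gene and less of its RNA per cell cannot be told apart.

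Promoter windows are shown first because the same short elements recur in them. SREBP factors are known to work with NF-Y, which binds the letters CCAAT, and with Sp1, which binds GGGCGG. The 250 bases before each start in RefSeq (GRCh38.p14) were searched on both strands for these elements, for a sterol response element written TCACNCCAC and for the palindromic E-box written TCACGTGA. RefSeq windows were matched for 6 of the 8 genes, with 10 starts in all, and SQLE and FDFT1 were not matched. CCAAT stood in at least 1 window of 6 of the 6 genes, against 32.008% of 35116 promoters of the same length, and the Sp1 element GGGCGG likewise in 6 of the 6, against 42.639%. TCACGTGA stood in the window of 1 gene, INSIG1, against 0.854% of promoters, and TCACNCCAC in none, against 0.883%. A gene with several starts has more chances of a match than a single window, and a match is not a binding site. INSIG1 (chr7:155297628-155297877, plus strand) held 1 NF-Y element, 5 Sp1 elements and the E-box, and LSS (chr21:46228775-46229024, minus strand) 1 NF-Y and 6 Sp1 elements. The upstream start of HMGCS1 (chr5:43313413-43313662, minus strand), the one printed, held 2 NF-Y and 2 Sp1 elements. Its downstream start (chr5:43313182-43313431) held 0 NF-Y and 2 Sp1 elements. The upstream start of DHCR7 (chr11:71449044-71449293, minus strand) held none of the 4 elements, while the window of its downstream start (chr11:71448394-71448643) held 2 NF-Y and 4 Sp1 elements. FDPS held 3 NF-Y elements and 1 Sp1 element, and the NF-Y elements of IDI1 lay at its 2 downstream starts, while all 3 of its starts held Sp1 elements. The 4 windows shown are those of the matched genes whose arrays labelled ING2-6K/Rmt etoposide lay wholly above those labelled ING2-6K/Rmt DMSO, and DHCR7 shows a window without the shared elements. In the windows printed 5′ to 3′ here, capitals mark the NF-Y element (CCAAT, or ATTGG where it lies on the other strand) and the E-box.
INSIG1: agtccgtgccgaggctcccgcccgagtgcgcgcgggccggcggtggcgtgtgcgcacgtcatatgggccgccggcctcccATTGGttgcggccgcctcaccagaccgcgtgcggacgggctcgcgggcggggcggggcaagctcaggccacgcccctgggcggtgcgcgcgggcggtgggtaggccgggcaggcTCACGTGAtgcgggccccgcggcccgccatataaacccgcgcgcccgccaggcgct
HMGCS1: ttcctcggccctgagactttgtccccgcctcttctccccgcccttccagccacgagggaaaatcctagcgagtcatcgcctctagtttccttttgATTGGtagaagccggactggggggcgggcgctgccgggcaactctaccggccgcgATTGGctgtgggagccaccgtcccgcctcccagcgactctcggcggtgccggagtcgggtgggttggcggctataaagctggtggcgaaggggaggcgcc
LSS: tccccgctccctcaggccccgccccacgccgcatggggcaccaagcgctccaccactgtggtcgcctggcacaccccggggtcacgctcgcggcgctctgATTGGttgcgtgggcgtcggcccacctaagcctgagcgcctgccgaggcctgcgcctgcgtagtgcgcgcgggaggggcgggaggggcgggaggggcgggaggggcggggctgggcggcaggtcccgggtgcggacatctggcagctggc
DHCR7, upstream start: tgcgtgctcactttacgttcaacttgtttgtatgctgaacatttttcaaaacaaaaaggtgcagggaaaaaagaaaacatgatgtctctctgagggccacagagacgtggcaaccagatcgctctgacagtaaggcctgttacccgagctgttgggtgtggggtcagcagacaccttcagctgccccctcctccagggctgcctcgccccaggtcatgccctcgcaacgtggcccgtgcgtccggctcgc

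On the arrays labelled ING2-6K/Rmt etoposide, the mean was the highest of the 4 groups for 6 of the 8 genes, IDI1 and FDFT1 being the exceptions. DHCR7 stood out, at 3225 ± 409.6 there, 1489 ± 959.9 on those labelled ING2-6K/Rmt DMSO, 709.1 ± 85.18 in ING2-WT etoposide and 1792 ± 1806 in ING2-WT DMSO (SD, n = 3 each). With each gene taken by its brightest probe and centred on its mean over the 12 arrays, the mean log2 level of the 8 genes was 0.49, 0.34 and 0.33 on ING2-6K/Rmt etoposide arrays 1, 2 and 3, against -0.18, -0.15 and -0.16 on the 3 labelled ING2-6K/Rmt DMSO. It was -0.27, -0.32 and -0.17 on the ING2-WT etoposide arrays, against -0.19, -0.25 and 0.53 on the ING2-WT DMSO arrays. The last of these, ING2-WT DMSO 3, was thus the single array outside the ING2-6K/Rmt etoposide group with a positive mean, and its mean was the highest of the 12. Of the single probes, 1 of 14 passed the test in any comparison (DHCR7 probe 2, between the lines in etoposide). The values of the other 13 are therefore given as values, with tests that did not pass.

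**Figure D1:**
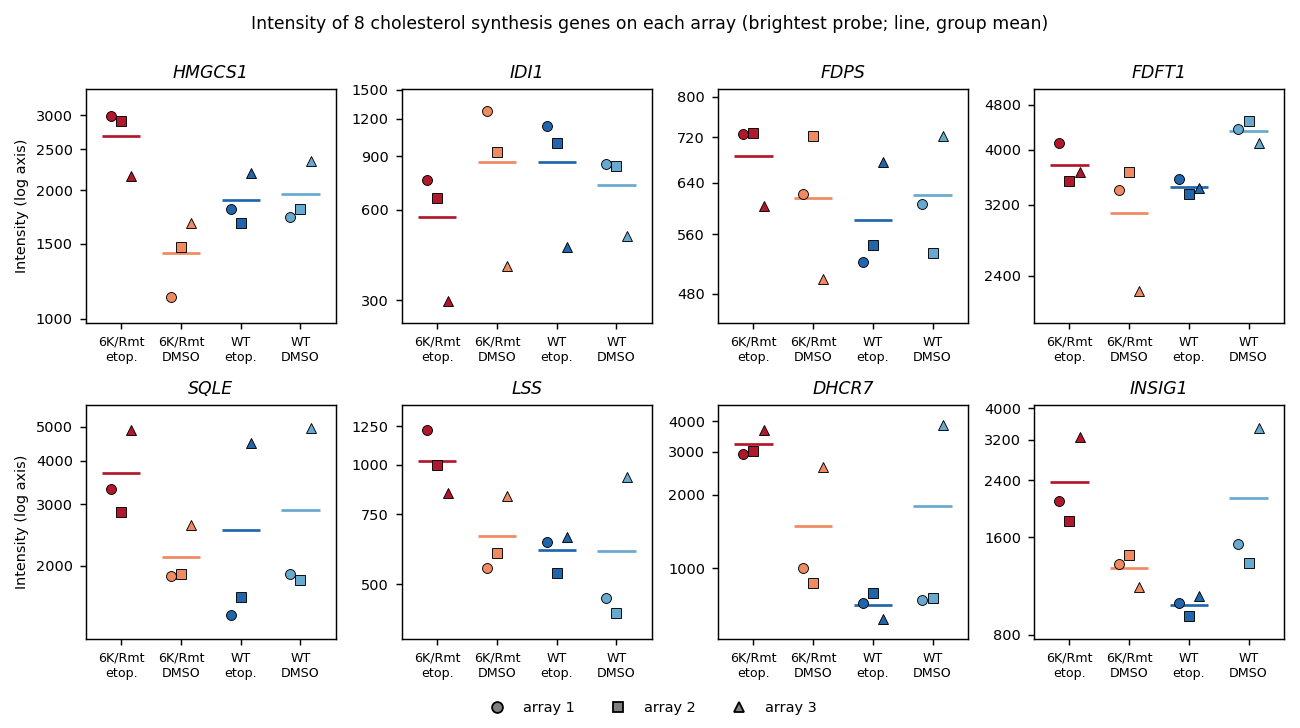
Quantile-normalised intensity (log axis) of the brightest probe of each of the 8 genes, 1 panel per gene, with 1 point per array in the 4 groups as labelled, the array number shown by the symbol and a line at the group mean. DHCR7, HMGCS1 and LSS are highest in the group labelled ING2-6K/Rmt etoposide, and array 3 of ING2-WT DMSO reaches 3877 for DHCR7, against 739 and 759.1 on arrays 1 and 2.

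HMGCS1, which condenses acetoacetyl-CoA and acetyl-CoA to HMG-CoA at the entry of the route, had intensities of 2994, 2910 and 2157 on the arrays labelled ING2-6K/Rmt etoposide, against 1127, 1473 and 1681 on those labelled ING2-6K/Rmt DMSO. For HMGCS1 in ING2-WT cells the values were 1807, 1673 and 2203 after etoposide, against 1736, 1809 and 2351 in DMSO. The 2 groups labelled ING2-6K/Rmt did not overlap, and the 2 ING2-WT groups did. The log2 change with etoposide was 0.92 (SE 0.285) on the ING2-6K/Rmt labels, with an adjusted p of 0.269 in limma, and -0.05 (SE 0.285, adjusted p = 0.948) in ING2-WT cells. The difference of the 2 changes was 0.97 (SE 0.403, adjusted p = 0.21). In DMSO, HMGCS1 lay below the ING2-WT arrays on all 3 arrays labelled ING2-6K/Rmt, with a log2 difference of -0.47 (adjusted p = 0.723).

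IDI1, which turns isopentenyl diphosphate into dimethylallyl diphosphate, ran against the other members. It read 753, 656.2 and 297.7 on the arrays labelled ING2-6K/Rmt etoposide, against 1273, 932.5 and 389.7 on those labelled ING2-6K/Rmt DMSO, and 1134, 994.9 and 452.4 in ING2-WT etoposide, against 851, 834.5 and 490.5 in ING2-WT DMSO. Array 3 was the lowest of its group in all 4 groups, by 0.781 to 1.48 on the log2 scale below the mean of arrays 1 and 2, and this spread hides the smaller order among arrays 1 and 2. Etoposide changed IDI1 by -0.55 on the ING2-6K/Rmt labels (SE 0.537, adjusted p = 0.819) and by 0.18 in ING2-WT cells (SE 0.537, adjusted p = 0.891), neither past the threshold.

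FDPS, which joins isoprenoid units into farnesyl diphosphate, differed little between groups. Its intensities were 725.6, 727.7 and 602 on the arrays labelled ING2-6K/Rmt etoposide, against 622, 722.8 and 498.2 on those labelled ING2-6K/Rmt DMSO. They were 521.1, 544.2 and 675.3 in ING2-WT etoposide, against 606.3, 532.8 and 722.3 in ING2-WT DMSO. All 4 groups overlapped, and no comparison of FDPS gave a log2 difference beyond 0.26 or an adjusted p under 0.613.

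FDFT1, squalene synthase, commits farnesyl diphosphate to sterols. Its probe 1, the brighter on average, read 4114, 3520 and 3658 on the arrays labelled ING2-6K/Rmt etoposide, against 3393, 3651 and 2255 on those labelled ING2-6K/Rmt DMSO. ING2-WT cells had 3550, 3350 and 3426 after etoposide, against 4357, 4495 and 4114 in DMSO. The ING2-WT DMSO arrays lay above both the ING2-WT etoposide arrays and the arrays labelled ING2-6K/Rmt DMSO. Neither difference passed the test, at -0.33 for etoposide in ING2-WT cells (SE 0.266, adjusted p = 0.551) and -0.51 for ING2-6K/Rmt against ING2-WT in DMSO (SE 0.266, adjusted p = 0.614). Probe 2 gave -0.47 and -0.52 for these 2 differences (adjusted p = 0.445 and 0.691).

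SQLE, which puts the first oxygen on squalene, had 2 probes that disagreed in part. Probe 1 read 3312, 2848 and 4899 on the arrays labelled ING2-6K/Rmt etoposide, against 1863, 1890 and 2613 on those labelled ING2-6K/Rmt DMSO, and 1441, 1630 and 4512 in ING2-WT etoposide, against 1893, 1814 and 4950 in ING2-WT DMSO. Probe 2 read 745.7, 629.9 and 1209 on the arrays labelled ING2-6K/Rmt etoposide, against 475.4, 466.6 and 552.9 on those labelled ING2-6K/Rmt DMSO, and 378.2, 339.3 and 168.7 in ING2-WT etoposide, against 484, 357.6 and 1178 in ING2-WT DMSO. On ING2-WT etoposide array 3, probe 1 was thus the highest of its group and probe 2 the lowest. Both probes put all 3 arrays labelled ING2-6K/Rmt etoposide above all 3 labelled ING2-6K/Rmt DMSO, by 0.78 (SE 0.503, adjusted p = 0.727) and 0.74 (SE 0.471, adjusted p = 0.726) on the log2 scale. Between ING2-6K/Rmt and ING2-WT in etoposide the differences were 0.71 (adjusted p = 0.424) and 1.57 (adjusted p = 0.0813).

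LSS folds squalene epoxide into lanosterol. Its probe 1 read 1220, 1001 and 850.4 on the arrays labelled ING2-6K/Rmt etoposide, against 551.1, 599.4 and 832.3 on those labelled ING2-6K/Rmt DMSO. The ING2-WT arrays had 641, 535 and 658.4 after etoposide, against 461.6, 423 and 931.9 in DMSO. The ING2-6K/Rmt etoposide arrays lay above both the ING2-6K/Rmt DMSO and the ING2-WT etoposide arrays, by 0.64 (SE 0.346, adjusted p = 0.681) and 0.73 (SE 0.346, adjusted p = 0.228). Probes 2 and 3 were dim, from 19 to 103.9 over the 12 arrays, and their log2 differences between these groups ran from 0.18 to 0.93, none past the threshold.

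DHCR7, the reductase of the last step to cholesterol, showed the largest log2 differences of the 8 genes in 3 of the 5 comparisons, both of its probes included. Probe 1 read 2948, 3031 and 3695 on the arrays labelled ING2-6K/Rmt etoposide, against 1004, 868.3 and 2595 on those labelled ING2-6K/Rmt DMSO, and 719.3, 788.7 and 619.3 in ING2-WT etoposide, against 739, 759.1 and 3877 in ING2-WT DMSO. Probe 2 read 2647, 2170 and 2815 on the arrays labelled ING2-6K/Rmt etoposide, against 968.6, 954.9 and 1704 on those labelled ING2-6K/Rmt DMSO, and 650, 612 and 284.1 in ING2-WT etoposide, against 603.8, 677.6 and 3164 in ING2-WT DMSO. The arrays labelled ING2-6K/Rmt etoposide were above every array of 2 other groups, and ING2-WT DMSO 3 alone reached their level. Between ING2-6K/Rmt and ING2-WT in etoposide, probe 2 was higher by 2.39 on the log2 scale (95% confidence interval 1.1 to 3.67, fold 5.23, adjusted p = 0.0429), and probe 1 was higher by 2.19 (fold 4.55, adjusted p = 0.0625). Etoposide shifted probe 1 by 1.29 on the ING2-6K/Rmt labels (SE 0.603, adjusted p = 0.611) and by -0.88 in ING2-WT cells (SE 0.603, adjusted p = 0.481), with a difference of 2.17 (SE 0.853, adjusted p = 0.184).

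The call on DHCR7 probe 2 was close to the threshold. It was kept when ING2-WT DMSO 1, ING2-WT DMSO 3 or ING2-6K/Rmt DMSO 3 was left out (adjusted p = 0.0491, 0.00617 and 0.0456) and lost when any of the other 9 arrays was, with adjusted p of 0.0507 to 0.138 and a log2 difference of 2.0 to 2.59 over the 12 fits. Without ING2-WT etoposide 3, where DHCR7 probe 1 read 619.3 and probe 2 read 284.1, the difference of probe 2 was 2.0 (adjusted p = 0.063). Without ING2-WT DMSO 3, 4 of 14 member probes passed between the lines in etoposide, against 7.98% of all probes, a share that was 4.69% with all 12 arrays. The 4 were both of DHCR7, SQLE probe 2 (log2 difference 1.57, adjusted p = 0.0318) and INSIG1 probe 1 (1.22, adjusted p = 0.0291).

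INSIG1, the sterol-dependent brake of SREBP, is itself one of its most responsive targets. Probe 1 read 2068, 1797 and 3264 on the arrays labelled ING2-6K/Rmt etoposide, against 1323, 1408 and 1121 on those labelled ING2-6K/Rmt DMSO. In ING2-WT cells it read 1004, 913.3 and 1053 after etoposide, against 1526, 1337 and 3491 in DMSO. None of these 4 groups overlapped with its partner in treatment: etoposide arrays lay above DMSO arrays on the ING2-6K/Rmt labels and below them in ING2-WT cells. The log2 changes were 0.85 (SE 0.382, adjusted p = 0.583) and -0.96 (SE 0.382, adjusted p = 0.207), and their difference of 1.81 (SE 0.54) had an adjusted p of 0.0801. Probe 2, which was dim at 51.08 to 194.4, gave a difference of 1.62 (SE 0.579, adjusted p = 0.142).

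In etoposide against DMSO on the arrays labelled ING2-6K/Rmt, limma called 0 of 14 member probes, against 1.35% of all 15459 probes (1.28% higher and 0.0712% lower), and 2 of 14 had an unadjusted p under 0.05, against 8.43% of all probes. The median log2 change of the 14 probes was 0.63 and 13 of them lay above 0, against a median of -0.04 over all probes, of which 47.4% lay above 0. The etoposide arrays lay wholly above the DMSO arrays for 7 of the 14 probes (HMGCS1, both of SQLE, LSS probe 1, INSIG1 probe 1 and both of DHCR7), against 9.13% of all probes, and wholly below for 0, against 9.88%. Probes of 1 gene share a transcript and are not independent. By brightest probe, 7 of 8 genes lay above 0, with a median of 0.71.

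In etoposide against DMSO in ING2-WT cells, limma likewise called 0 of 14 member probes, against 4.29% of all probes (1.43% higher and 2.86% lower), and 3 of 14 had an unadjusted p under 0.05, against 18.3%. With the array number as a block, 0 member probes and 1346 in place of 663 of all probes passed. The median log2 change was -0.33 with 3 of 14 probes above 0, against -0.06 over all probes. The groups did not overlap for 2 of the 14, INSIG1 probe 1 and FDFT1 probe 1, both lower with etoposide, against 10.8% of all probes, and for 0 of 14 were the etoposide arrays wholly above, against 11.6%. The difference between the 2 etoposide effects (ING2-6K/Rmt minus ING2-WT) called 0 of 14 probes against 5.52% of all (3.51% higher and 2.02% lower), with 6 of 14 at an unadjusted p under 0.05 against 20% of all. Its median was 0.85 with 12 of 14 above 0, against 0.06 over all probes.

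In etoposide, ING2-6K/Rmt against ING2-WT called 1 of 14 probes, DHCR7 probe 2, higher, against 4.69% of all probes (2.98% higher and 1.71% lower), and 4 of 14 had an unadjusted p under 0.05, against 23.3%. The median log2 difference was 0.72 with 13 of 14 above 0, against 0.09 over all probes. For 5 of 14 probes (SQLE probe 2, LSS probe 1, INSIG1 probe 1 and both of DHCR7) the ING2-6K/Rmt arrays lay wholly above, against 14.9% of all probes, and for 0 wholly below, against 17.2%. In DMSO, ING2-6K/Rmt against ING2-WT called 0 of 14, against 2.2% of all probes (0.252% higher and 1.95% lower), with 0 of 14 and 9.96% of all at an unadjusted p under 0.05. The block by array number called 0 member probes here and 514 in place of 340 of all. The median in DMSO was -0.13, with 6 of 14 above 0, and for 4 of 14 probes (HMGCS1, INSIG1 probe 2 and both of FDFT1) the ING2-6K/Rmt arrays lay wholly below, against 9% of all probes, and for 0 wholly above, against 8.19%. These comparisons share groups of arrays and are not independent of each other.

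**Figure D2:**
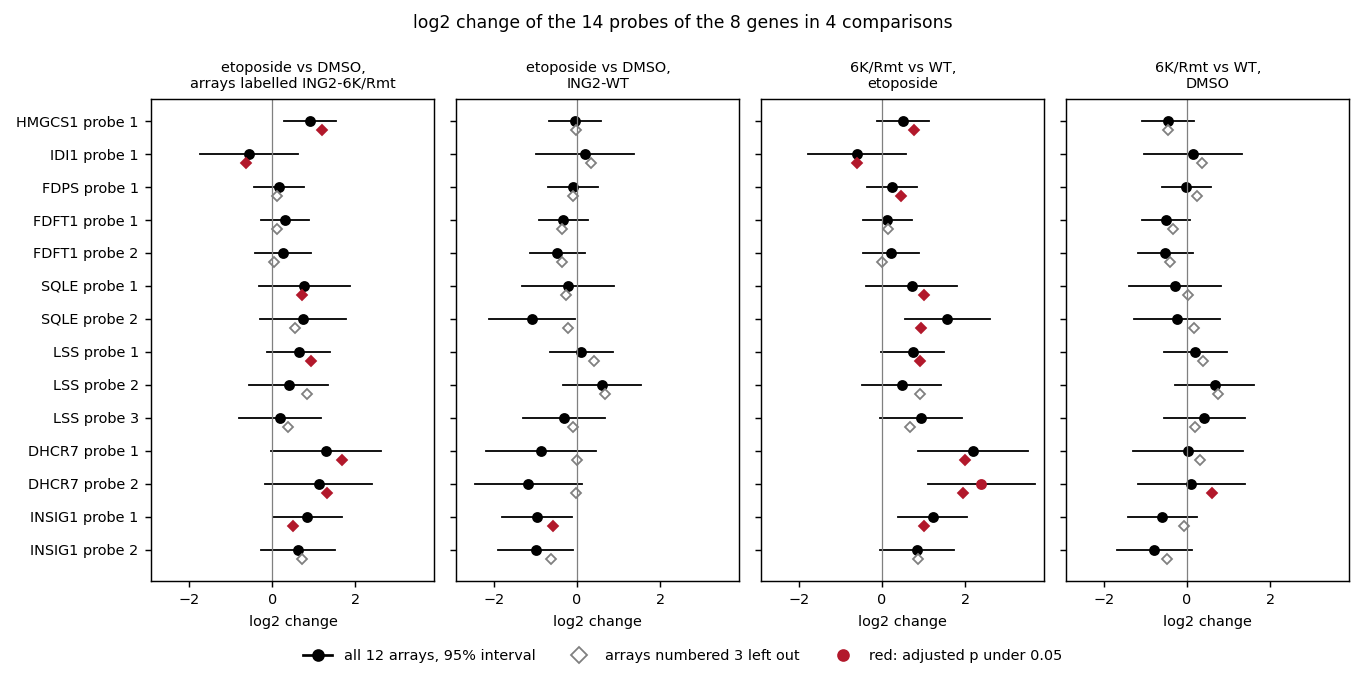
Log2 change of each of the 14 member probes (circles) with 95% confidence intervals (lines) in 4 comparisons of the groups as labelled, in pathway order, with diamonds for the values without the arrays numbered 3 and red for an adjusted p under 0.05. DHCR7 probe 2 between ING2-6K/Rmt and ING2-WT in etoposide, at 2.39, is the single red circle, and 7, 1, 9 and 1 of the 14 diamonds are red from left to right.

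The arrays of the same number were also set against each other. A pair here means only a shared number, since the deviations did not show which of arrays 1 and 2 belong together. Between the arrays labelled ING2-6K/Rmt etoposide and ING2-6K/Rmt DMSO, 7, 6 and 7 of the 8 genes were higher with etoposide in pairs 1, 2 and 3, with median log2 differences of 0.74, 0.47 and 0.44. In ING2-WT cells, 3, 4 and 0 of the 8 were higher, with medians of -0.13, -0.04 and -0.20. The pair numbered 3 in ING2-WT cells held the extremes, DHCR7 at -2.65 and INSIG1 at -1.73, and ING2-WT DMSO 3 was the brightest of all 12 arrays for both. Between ING2-6K/Rmt and ING2-WT in etoposide, 7, 7 and 5 of the 8 genes were higher, with medians of 0.83, 0.80 and 0.11. In DMSO the counts were 4, 6 and 0, with medians of 0.007, 0.12 and -0.56.

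**Figure D3:**
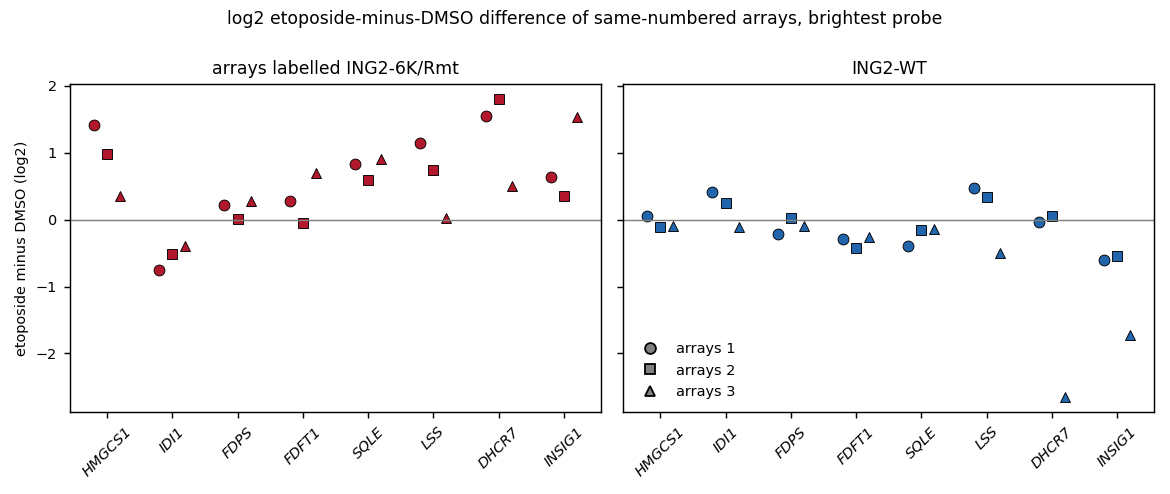
Log2 difference between arrays of the same number for the 8 genes by their brightest probe (points), etoposide minus DMSO on the ING2-6K/Rmt labels, left of the same in ING2-WT cells, with a line at 0. On the ING2-6K/Rmt labels 7, 6 and 7 of the 8 genes lie above 0 in pairs 1, 2 and 3, and in ING2-WT cells 3, 4 and 0 do.

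Leaving out all 4 arrays numbered 3 left 2 arrays per group, and 23.7% to 40.9% of all 14242 probes then kept passed, depending on the comparison. Etoposide against DMSO on the ING2-6K/Rmt labels then called 7 of 14 member probes, 6 higher and 1 lower, against 36.1% of all probes. DHCR7 rose by 1.69 (adjusted p = 0.00144), HMGCS1 by 1.20 (adjusted p = 0.0044), LSS by 0.95 (adjusted p = 0.00848), SQLE by 0.71 (adjusted p = 0.0127) and INSIG1 by 0.50 (adjusted p = 0.0424) on the log2 scale. IDI1 fell by 0.64 (adjusted p = 0.0409), while FDPS and FDFT1 had 0.12 each (adjusted p = 0.57 and 0.565). In ING2-WT cells 1 of 14 passed, INSIG1 probe 1, at -0.58 (adjusted p = 0.0325), against 28.9% of all probes.

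In the same 8 arrays the difference of the 2 effects called 6 of 14 member probes, against 35.8% of all, with DHCR7 at 1.68 (adjusted p = 0.00196), HMGCS1 at 1.23 (adjusted p = 0.00934), INSIG1 at 1.08 (adjusted p = 0.0106), SQLE at 0.99 (adjusted p = 0.0127) and IDI1 at -0.97 (adjusted p = 0.0318). Between ING2-6K/Rmt and ING2-WT in etoposide 9 of 14 passed, 8 higher and 1 lower, against 40.9% of all. DHCR7 was higher by 2.00 (adjusted p = 0.000632), INSIG1 by 1.02 (adjusted p = 0.00362) and SQLE by 1.01 (adjusted p = 0.00331), and IDI1 was lower, at -0.60 (adjusted p = 0.0445). LSS, HMGCS1 and FDPS were higher by 0.92, 0.77 and 0.45 (adjusted p = 0.00713, 0.0123 and 0.0496). In DMSO 1 of 14 passed, DHCR7 probe 2, higher, against 23.7% of all. A call on 2 arrays per group rests on how close arrays 1 and 2 of each group lay.

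The other enzymes of the route were described by the same counts. All 13 listed besides the 8 genes were measured. On the ING2-6K/Rmt labels, limma called 0 of 13 with etoposide and 2 had an unadjusted p under 0.05, against 8.43% of all probes. Their median log2 change was 0.69 with 11 of 13 above 0. For 3 (MVD, CYP51A1 and EBP) the etoposide arrays lay wholly above the DMSO arrays, against 9.13% of all probes, and for 0 wholly below, against 9.88%. In ING2-WT cells 0 of 13 passed and 4 had an unadjusted p under 0.05, against 18.3% of all probes. The median there was -0.11 with 6 of 13 above 0, and the etoposide arrays lay wholly above for 1 (GGPS1), against 11.6%, and wholly below for 3 (MVK, LBR and EBP), against 10.8%. With the array number as a block, 3 of 13 passed, against 8.71% of all probes, a share that was 4.29% without the block. GGPS1, a synthase of geranylgeranyl diphosphate, rose by 1.30 (adjusted p = 0.0344), and mevalonate kinase, MVK, fell by 1.46 (adjusted p = 0.0314), as did LBR.

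Between the lines in etoposide, ING2-6K/Rmt against ING2-WT, these enzymes had a median of 0.57 with 10 of 13 above 0, and limma called 0, with 6 at an unadjusted p under 0.05, against 23.3% of all probes. The ING2-6K/Rmt arrays lay wholly above for 7 of the 13, against 14.9% of all probes, and wholly below for 1, GGPS1, against 17.2%. In DMSO the median was -0.34, with 0 called and 1 at an unadjusted p under 0.05, against 9.96%, and the arrays lay wholly above for 0 and wholly below for 1, LBR. The difference of effects called 1 of 13, LBR, higher, with a median of 1.03 and 6 at an unadjusted p under 0.05, against 20% of all probes. Without the arrays numbered 3, limma called 9 of 13 with etoposide on the ING2-6K/Rmt labels (7 higher and 2 lower), against 36.1% of all probes, and 5 in ING2-WT cells (1 higher and 4 lower), against 28.9%. It then called 9 of 13 for the difference of effects (7 higher and 2 lower), 8 between the lines in etoposide (7 higher and 1 lower) and 4 in DMSO (2 higher and 2 lower), against 35.8%, 40.9% and 23.7% of all probes.

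LBR is a lamin B receptor that also acts as a sterol reductase. Its probe 1 read 291.7, 230 and 831.3 on the arrays labelled ING2-6K/Rmt etoposide, against 106.6, 80.64 and 237.4 on those labelled ING2-6K/Rmt DMSO. In ING2-WT cells it read 135.9, 201.8 and 92.05 after etoposide, against 409, 420.3 and 876.7 in DMSO. The groups overlapped on the ING2-6K/Rmt labels, and in ING2-WT cells the etoposide arrays were all lower. The difference of the changes was 3.56 (SE 0.806, adjusted p = 0.0242). It was lost without ING2-WT etoposide 1 (adjusted p = 0.0521), ING2-WT DMSO 3 (0.0536), ING2-6K/Rmt DMSO 1 (0.0677) or 2 (0.0654), or ING2-6K/Rmt etoposide 3 (0.0504). Without all 4 arrays numbered 3 it was 2.81 (adjusted p = 0.0022). With the block LBR probe 1 also fell in ING2-WT cells with etoposide, at -1.97 (adjusted p = 0.0462, against 0.0837 without the block). Probe 2 of LBR was dim, at 6.885 to 140.4, and followed probe 1 only in part. Its changes with etoposide in pairs 1, 2 and 3 were -0.414, 0.865 and -2.56 in ING2-WT cells. On the ING2-6K/Rmt labels they were 1.28, -0.596 and 3.13.

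SREBF2, the SREBP that mainly drives sterol genes, was dim. It read 48.86, 72.26 and 62.53 on the arrays labelled ING2-6K/Rmt etoposide, against 72.91, 77.21 and 188.1 on those labelled ING2-6K/Rmt DMSO, and 39.94, 55.05 and 75.97 in ING2-WT etoposide, against 64.63, 48.42 and 103.6 in ING2-WT DMSO. Its log2 change with etoposide was -0.75 on the ING2-6K/Rmt labels (adjusted p = 0.7), opposite in sign to that of 7 of the 8 genes.

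Genes around the synthesis route were counted in the same way. Of the 6 genes of SREBP control, limma called 0 in each of the 5 comparisons, against 1.35% to 5.52% of all probes. In each, 0 had an unadjusted p under 0.05, against 8.43% to 23.3% of all probes. Of 6 genes of uptake and transport 5 were measured and 0 were called in any comparison. Up to 2 had an unadjusted p under 0.05, against the same shares of all probes. Without the arrays numbered 3, limma called 3 of the 6 control genes with etoposide on the ING2-6K/Rmt labels (2 higher and 1 lower), 0 in ING2-WT cells, 2 for the difference and 3 between the lines in each treatment, all higher. It then called 2 of the 5 uptake genes with etoposide on the ING2-6K/Rmt labels, 2 between the lines in etoposide and 1 in each other comparison, all higher. Of all probes, 36.1% then passed with etoposide on the ING2-6K/Rmt labels, 28.9% in ING2-WT cells and 35.8% for the difference. Between the lines 40.9% passed in etoposide and 23.7% in DMSO. Among 5 genes of efflux and storage was ABCG1, an exporter of cholesterol that LXR switches on when sterols are plentiful. By its probe 1 it read 312.4, 292.4 and 713.9 in ING2-WT etoposide, against 86.68, 98.72 and 104.8 in ING2-WT DMSO. It rose by 2.06 there (SE 0.492, adjusted p = 0.0383), a call kept without ING2-WT etoposide 2, ING2-6K/Rmt DMSO 2 or 3, or ING2-6K/Rmt etoposide 3, and lost without any of the other 8 arrays. Without ING2-WT etoposide 3, its brightest array, the change was 1.66 (adjusted p = 0.068), and the adjusted p reached 0.134 without ING2-WT DMSO 1. Without all 4 arrays numbered 3 ABCG1 rose by 1.72 (adjusted p = 0.00173). On the ING2-6K/Rmt labels ABCG1 probe 1 read 156.2, 193.9 and 107 with etoposide, against 116.6, 101 and 338.5 in DMSO, groups that overlapped. Probe 2 of ABCG1 was dim and did not show the rise in ING2-WT cells. It read 104.3, 23.18 and 5.72 after etoposide, against 8.707, 23.33 and 45.52 in DMSO.

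The gene of LXR alpha, NR1H3, read 150.8, 154.3 and 294.9 on the arrays labelled ING2-6K/Rmt etoposide, against 451.2, 420.8 and 431.4 in ING2-WT etoposide, without overlap, a log2 difference of -1.19 (adjusted p = 0.055), and -1.51 without the arrays numbered 3 (adjusted p = 0.00281). The 8 genes of fatty acid synthesis, which SREBP1 drives, all lay above 0 on the ING2-6K/Rmt labels with etoposide, in the difference of effects and between the lines in etoposide, with medians of 0.60, 1.30 and 1.00, and limma called 0 of the 8 by their brightest probe (0, 3 and 3 at an unadjusted p under 0.05, against 8.43%, 20% and 23.3% of all probes). Without the arrays numbered 3 it called 5, 6 and 7 of the 8 in these comparisons, all higher, against 36.1%, 35.8% and 40.9% of all probes. With the block, ELOVL6 probe 1 was lower with etoposide in ING2-WT cells (-1.35, adjusted p = 0.0199) and in ING2-6K/Rmt against ING2-WT in DMSO (-1.56, adjusted p = 0.0144). The second probe of ELOVL6, a fatty acid elongase, passed on its own. It read 170.9, 146.7 and 534.5 on the arrays labelled ING2-6K/Rmt etoposide, against 129.4, 137.6 and 178.9 on those labelled ING2-6K/Rmt DMSO, and 20.66, 115.6 and 4.926 in ING2-WT etoposide, against 305.7, 312.9 and 619.8 in ING2-WT DMSO. It fell in ING2-WT cells with etoposide (log2 change -3.53, adjusted p = 0.017), a call lost without ING2-WT DMSO 1 (adjusted p = 0.0534), 2 (0.0533) or 3 (0.0586) or ING2-WT etoposide 1 (0.0644). The difference of effects was 4.22 (adjusted p = 0.0306) and the difference between the lines in etoposide 2.82 (adjusted p = 0.0461), calls lost without 8 and 10 of the 12 arrays in turn (adjusted p up to 0.0788 and 0.17). The floor of 16 set the value on ING2-WT etoposide 3, and without that array the change was -3.02 (adjusted p = 0.0361) and the difference 3.71 (adjusted p = 0.0358). A floor of 64 put the difference between the lines in etoposide at 1.61 (adjusted p = 0.0778) and an offset of 16 at 2.46 (adjusted p = 0.0512). Without all 4 arrays numbered 3, ELOVL6 probe 2 still fell in ING2-WT cells (-2.67, adjusted p = 0.032), while the difference of effects was 2.92 (adjusted p = 0.0595) and that between the lines in etoposide 1.71 (adjusted p = 0.0931).

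**Figure D4:**
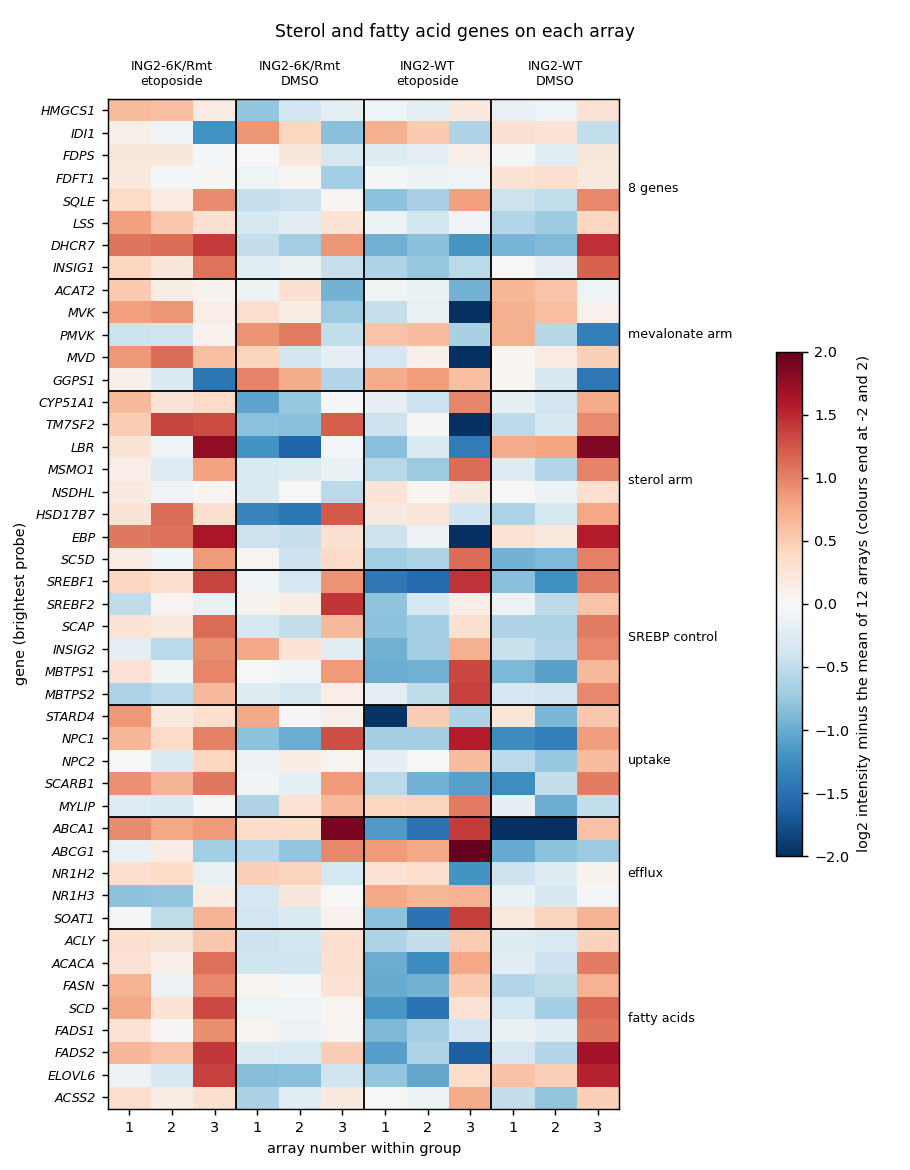
Log2 level of each gene of the route and its control by its brightest probe, centred on its mean over the 12 arrays (colour scale), with genes down the page and arrays across in the 4 groups as labelled. For the 8 genes at the top, the 3 columns labelled ING2-6K/Rmt etoposide and the column ING2-WT DMSO 3 are the 4 with a mean above 0, and the row of IDI1 runs the other way.

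Within the set, the arrays ordered most genes alike. Over the 12 arrays, Pearson's r of a gene with the mean of the other 7 was 0.80 for INSIG1, 0.78 for LSS, 0.69 for DHCR7, 0.67 for HMGCS1, 0.61 for FDPS and 0.60 for SQLE. It was 0.16 for FDFT1 and -0.64 for IDI1. On the 8 arrays numbered 1 and 2, IDI1 had -0.76 and SQLE 0.96, so the contrary order of IDI1 did not rest on the arrays numbered 3. The closest pair was LSS and DHCR7 (r = 0.85) and the most opposed IDI1 and SQLE (r = -0.84). Other probes of a gene followed its probe 1 to different degrees, with an r of 0.96 for DHCR7, 0.83 for FDFT1, 0.59 for INSIG1 and 0.43 for SQLE, and of 0.72 for LSS probe 2 and 0.12 for LSS probe 3. These coefficients describe 12 arrays that share groups and array numbers, and carry no test.

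Among the kept probes of other genes, the 10 whose levels followed the mean profile of the 8 genes most closely over the 12 arrays included NCAM1 (r = 0.96), SLC1A3 (0.94), ENPP1 (0.93), VLDLR (0.92), PGF (0.92), WDR54 (0.92), NR2F1 (0.91), DAG1 (0.91) and ATP13A2 (0.90). VLDLR is a receptor that binds lipoproteins. Among the 5 with the lowest r were BTBD10 (-0.95), ELL2 (-0.94), INPP1 (-0.94) and RPAP3 (-0.94). Over all kept probes 5% lay above 0.68 and 5% below -0.75, so high coefficients in either direction were common on these arrays.

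Markers of proliferation, of the ectopic gene and of cell type moved with parts of this pattern. TOP2A had an r of 0.69 with the mean profile over 12 arrays and 0.55 over the arrays numbered 1 and 2. The r of a single member with TOP2A ran from -0.428 (IDI1) to 0.763 (INSIG1), with 0.552 for DHCR7. On the arrays labelled ING2-6K/Rmt etoposide, TOP2A read 2256, 1937 and 3319 and DHCR7 2948, 3031 and 3695. On the ING2-WT DMSO arrays TOP2A read 2035, 2425 and 3149 and DHCR7 739, 759.1 and 3877. ING2 probe 1 had an r of 0.42 over 12 arrays and 0.975 over arrays 1 and 2. It was bright on ING2-6K/Rmt etoposide 1 and 2 and not on array 3 of that group (119). Summed over the 7 mesenchymal markers, the intensity was 70460 to 82740 on the arrays labelled ING2-6K/Rmt etoposide, 69840 to 75460 on those labelled ING2-6K/Rmt DMSO, 54430 to 64040 in ING2-WT etoposide and 55580 to 75310 in ING2-WT DMSO. The sum over the 6 markers of other cells was 70.28 to 215 on the arrays labelled ING2-6K/Rmt etoposide, 152 to 173.4 on those labelled ING2-6K/Rmt DMSO, 210.7 to 272.5 in ING2-WT etoposide and 153.4 to 174.4 in ING2-WT DMSO. Of the 2 markers of other cells that passed the filter, CDH1 was called lower between the lines in etoposide (adjusted p = 0.0375). It read 10.75, 11.37 and 14.28 on the arrays labelled ING2-6K/Rmt etoposide, all under the floor of 16, against 81.92, 49.53 and 147.3 in ING2-WT etoposide. The part of what TOP2A, ING2, CDH1 and these marker sums reflect in the values of the 8 genes was not tested.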

How the data were processed

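The authors used GeneSpring to derive probe values and MeV downstream (versions not given in the sources used here). The deposited table gave each probe's intensity, linear, background-subtracted and scaled between arrays by the authors in a way not stated, with medians of 19.2 to 31.7 and 75th percentiles of 75.6 to 87.7 per array and 0.434% to 26.9% of values below 0. The other deposited column used, of unit other, held gene symbols. Another 24 columns, with signals and detection values, match no label and were not used.

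Quantile normalisation came first, then a floor of 16, then log2. Intensities in the text are quantile-normalised, before the floor of 16. Probes that reached 64 on 3 or more arrays were kept (15459 probes, 11444 genes). All 12 arrays entered 1 limma fit (version 3.58.1, R 4.3.3) of the 4 group means, with moderated tests (two-sided), Benjamini-Hochberg adjustment over every kept probe and a threshold of 0.05. Log2 changes had a median standard error of 0.461, the difference of changes one of 0.652. The fit was tested on simulated data with known changes. The number of arrays limits the precision.

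Same-numbered arrays deviated together from their group means in 2 comparisons, etoposide against DMSO in ING2-WT cells and ING2-6K/Rmt against ING2-WT in DMSO. Over all kept probes r was 0.218, 0.261 and 0.319, and 0.46, 0.368 and 0.635. Arrays 1 and 2 of unlike number deviated together about as closely, with r of 0.225 and 0.232, and 0.502 and 0.404. Against array 3 they had r of -0.293 to -0.251, and -0.597 to -0.477. The numbers thus set array 3 apart and do not pair arrays 1 and 2. For these 2 comparisons results are also given with the array number as a block.

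The members and lists were chosen with earlier results of these data known. Named were all members with every probe, SREBF2, the listed pathway genes with the smallest adjusted p (the text uses part of these), and the 10 probes most like and 5 least like the mean member profile. Other genes named within a count were chosen after their values were seen. Some genes of these lists are not reported here and are left out of the list counts and sums. Probes of a gene are numbered by mean intensity, and lists count each gene by its brightest probe. Promoter windows come from RefSeq, GRCh38.p14. Alternatives covered scaling, floor, filter, probe choice, groups fitted, block, array weights and arrays left out.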

Additional observations from a re-analysis of the deposited data

Results flagged for a closer look

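In all, 2 differences were marked because the effect of etoposide differed between the ING2-6K/Rmt and the ING2-WT labels by the test of the difference itself. They were LBR probe 1, at 3.557 on the log2 scale (adjusted p = 0.0242), and the second probe of ELOVL6, at 4.224 (adjusted p = 0.0306). For both the change was positive on the ING2-6K/Rmt labels and negative in ING2-WT cells. Because CDKN1A and TOP2A run opposite to the treatment labels on the ING2-6K/Rmt arrays, the direction of these differences holds for the labels only. Groups of 3 arrays were too small for a test of single outlying arrays.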

How the results depend on the processing

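Of the named probes, 2 values changed sign with a call, both of ABCG1 with etoposide on the ING2-6K/Rmt labels without the arrays numbered 3 (0.69 on quantile-normalised values, 0.85 on deposited values). Of the other comparisons of named probes with an alternative, 2994 kept their side of the threshold, 199 passed it and 58 lost it, and the cause was not tested. With no filter, which adjusts over more probes, all 6 calls on named probes were lost, and with only the groups compared 3 were. In what follows, counts of all probes are given in the order ING2-WT etoposide effect, ING2-6K/Rmt etoposide effect, difference, lines in DMSO, lines in etoposide. They were 1346, 356, 1851, 514 and 2169 with the replicate block, 275, 67, 546, 124 and 424 with 64 or more on all 12 arrays, 4631, 5884, 5982, 4617 and 6200 with array weights, and 4121, 5142, 5105, 3369 and 5823 without the arrays numbered 3. Without those arrays and with deposited values, chosen after seeing the data, they were 4441, 5110, 5283, 3487 and 6009. With only the groups compared, 100 probes passed for ING2-WT and 307 for the lines in etoposide, and the difference needs all 4 groups. With 1 array left out they ran from 280 to 910, 106 to 323, 569 to 1539, 182 to 539 and 201 to 1397.

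Member probes called, of 14, were 1, 8, 6, 2 and 7 with array weights, 1, 7, 6, 1 and 9 without the arrays numbered 3, and 1, 7, 7, 1 and 8 there with deposited values. The replicate block gave 1 for the difference (INSIG1 probe 1, adjusted p = 0.0387) and 3 for the lines in etoposide. For the lines in etoposide the count was 0 with no filter or with 1 probe per gene, 2 with only the groups compared, with 75th percentile scaling or with deposited values, and 0 to 4 with 1 array left out. A floor of 64 called 475 probes higher and 446 lower there, against 461 and 264. Scaling to the 75th percentile or deposited values put the median of the difference over all probes at 0.185 and 0.171, and over member probes at 1.02 and 1.01. Same-numbered arrays did not all deviate together in etoposide against DMSO on the ING2-6K/Rmt labels (r = 0.369, -0.0658 and 0.287). Between the lines in etoposide they did so weakly (0.0747, 0.185 and 0.209), and arrays 1 and 2 of unlike number had 0.167 and 0.0788. With 3 arrays per group and a median standard error of 0.461, smaller changes could not be detected.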
